A study of Mus musculus with 536 samples.

Results

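The Schlafen genes are a family of related genes that lie side by side in the mouse genome. The genes described here are Slfn1, Slfn2 and Slfn4, 3 of the 12393 genes measured on the array. They were taken by name, with earlier results of these data known. Each was read from its brightest probe set by the mean of all arrays, and this rule for the probe set used no difference between groups. Those probe sets were 1418612_at for Slfn1 (Entrez gene 20555), 1450165_at for Slfn2 (Entrez gene 20556) and 1427102_at for Slfn4 (Entrez gene 20558). Of the family, 5 genes have a probe set of their own on the array. The other two, Slfn3 and Slfn8, are described beside the members.

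Schlafen proteins take part in restraining cell growth and in defence against viruses, and many of the family's genes respond to type I interferon, the cytokine that infected or stimulated cells release. Slfn1 was first described as a gene that slows the growth of developing T cells. Slfn2 is needed to keep T cells in their resting, quiescent state. Slfn4 is best known from macrophages and other myeloid cells, where interferon and bacterial products that signal through Toll-like receptors raise it.

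Blood was taken by cardiac puncture into PAXgene tubes, which lyse cells and preserve RNA, from C57BL/6 mice, an inbred laboratory strain, aged 10 to 12 weeks. Irradiated mice had received a single total body dose from a Cs137 gamma source at 480 cGy per minute, and globin-reduced RNA of each mouse was hybridised to an Affymetrix mouse array (536 arrays of 534 mice, since 2 mice were scanned again). The labels place the mice in 4 sets. In the dose-time set, 240 mice without an agent formed 48 groups of 5, given 0 cGy (unirradiated), doses of 100, 200 and 300 cGy, or the higher doses of 450 and 600 cGy and of 800 and 1050 cGy, and bled at 6, 24, 48, 72, 120 or 168 hr. In the sex and treatment set, 111 female and 115 male mice received no agent, GCSF (a growth factor for neutrophils) or LPS (a bacterial cell wall component), with 0, 200, 300 or 600 cGy, and were bled at 6 or 24 hr (48 groups of 3 to 5). In the small treatment set, 50 mice received 0, 150 or 600 cGy with no agent, GCSF or LPS and were bled at 6 hr (9 groups of 5 or 6). In the small 7 day set, 18 mice were unirradiated (8 mice) or had received 150 cGy 168 hr before (10 mice). The labels give no genotype beyond the strain and do not say when the agents were given or, outside the sex and treatment set, which sex the mice were. Nothing in the labels places the mice of a group in separate litters or cages, so p-values measure the spread between these mice.

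Slfn1, Slfn2 and Slfn4 lie within a single stretch of chromosome 11 that holds 9 Schlafen genes between positions 82951349 and 83286726 (GRCm38.p6). Slfn2 runs from 83065112 to 83070678, Slfn1 from 83116820 to 83122670 and Slfn4 from 83175172 to 83190216. Since their levels moved together in part, the RefSeq promoters of all 3, from 250 bases before to 50 bases after the gene's start on the plus strand, are shown with the stretch that they share in capitals. They are chr11:83064862-83065161 for Slfn2, chr11:83116570-83116869 for Slfn1 and chr11:83174936-83175235 for Slfn4, printed 5′ to 3′ in that order along the chromosome. The start used for a window is 83065112 for Slfn2 and 83116820 for Slfn1, the first base of the gene, and 83175186 for Slfn4, slightly inside the gene.
Slfn2: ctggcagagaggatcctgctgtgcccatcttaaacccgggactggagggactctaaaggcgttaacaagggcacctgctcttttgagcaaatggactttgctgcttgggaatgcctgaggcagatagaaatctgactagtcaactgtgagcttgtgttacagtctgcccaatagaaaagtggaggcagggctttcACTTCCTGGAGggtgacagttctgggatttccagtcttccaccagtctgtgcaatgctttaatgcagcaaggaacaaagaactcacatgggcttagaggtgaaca
Slfn1: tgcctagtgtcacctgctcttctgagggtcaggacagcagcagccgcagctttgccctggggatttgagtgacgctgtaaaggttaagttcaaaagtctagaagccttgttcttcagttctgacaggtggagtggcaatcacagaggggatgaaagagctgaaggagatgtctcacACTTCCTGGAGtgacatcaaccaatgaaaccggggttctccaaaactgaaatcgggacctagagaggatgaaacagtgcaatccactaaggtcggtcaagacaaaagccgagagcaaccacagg
Slfn4: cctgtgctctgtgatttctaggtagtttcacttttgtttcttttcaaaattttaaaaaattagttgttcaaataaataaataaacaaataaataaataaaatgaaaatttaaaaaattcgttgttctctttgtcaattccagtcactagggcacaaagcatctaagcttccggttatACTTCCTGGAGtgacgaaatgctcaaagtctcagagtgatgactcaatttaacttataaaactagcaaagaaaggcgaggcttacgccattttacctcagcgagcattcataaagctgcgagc
The shared stretch is the 11 bases ACTTCCTGGAG, the longest run of letters found in all 3 windows. It begins 55 bases before the window's start site in Slfn2, 74 before that in Slfn1 and 73 before that in Slfn4. The stretch was first noticed by reading these sequences, so its presence in the members carries no test. On the gene's own strand it stands in the windows of 11 genes, 0.0335% of the 32851 windows of that length, and 8 of those genes are not among the members. On either strand it stands in 24 windows, or 0.0731%. The Slfn3 window holds the 9 bases ACTTCCTGG of it. The longest run that the Slfn8 window shares with all 3 members' windows has 5 bases (AGCAA, which is not part of the stretch). The 4 letters TTCC inside it stand in 96% of windows. The interferon response element core GAAANNGAAA and the gamma-activated site core TTCNNNGAA were searched on both strands and are in none of the members' windows, against 3.44% and 8.3% of all windows. The first of them has 1 match in the window of Slfn8. Such a match, or its lack, describes only the letters of these windows.

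The deposited values are log2 expression, so that 1 unit is a factor of 2. Over all arrays the Slfn1 probe set ranged from 6.36 to 12.41 with a mean of 9.07, that of Slfn2 from 8.18 to 12.77 with a mean of 10.51, and that of Slfn4 from 7.34 to 14.17 with a mean of 11.3. Each mean was above that of most genes, at percentiles 91.8, 97.0 and 98.3. Probe sets differ in how they bind, so levels are compared here within a gene and never between genes. Between the 48 groups of the dose-time set, the group means spanned 3.26 log2 units for Slfn1, 2.78 for Slfn2 and 4.77 for Slfn4. The median SD between the 5 mice of a group was 0.30, 0.27 and 0.58. Slfn4 therefore moved most and also varied most from mouse to mouse, with an SD of 2.05 in the group where its mice were most scattered.

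Without irradiation, the levels were not constant over the sampling times. In the 5 unirradiated mice at 6 hr, Slfn1 stood at 8.09, 8.44, 8.71, 8.23 and 7.70, Slfn2 at 10.27, 10.02, 10.61, 10.22 and 9.93, and Slfn4 at 9.10, 9.68, 9.64, 9.52 and 8.56. Over the 6 sampling times the 0 cGy mice differed in Slfn2 (limma F test, adjusted p = 1.58e-05) and in Slfn1 (adjusted p = 0.0425), while the test did not pass for Slfn4 (adjusted p = 0.629). Of all genes, 50.3% passed the same test. The difference in Slfn2 lay mainly at 120 hr, when the unirradiated mice were 0.76 higher than at 6 hr (adjusted p = 0.0051). Every dose below is therefore compared with the unirradiated mice of its own sampling time.

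**Figure D1:**
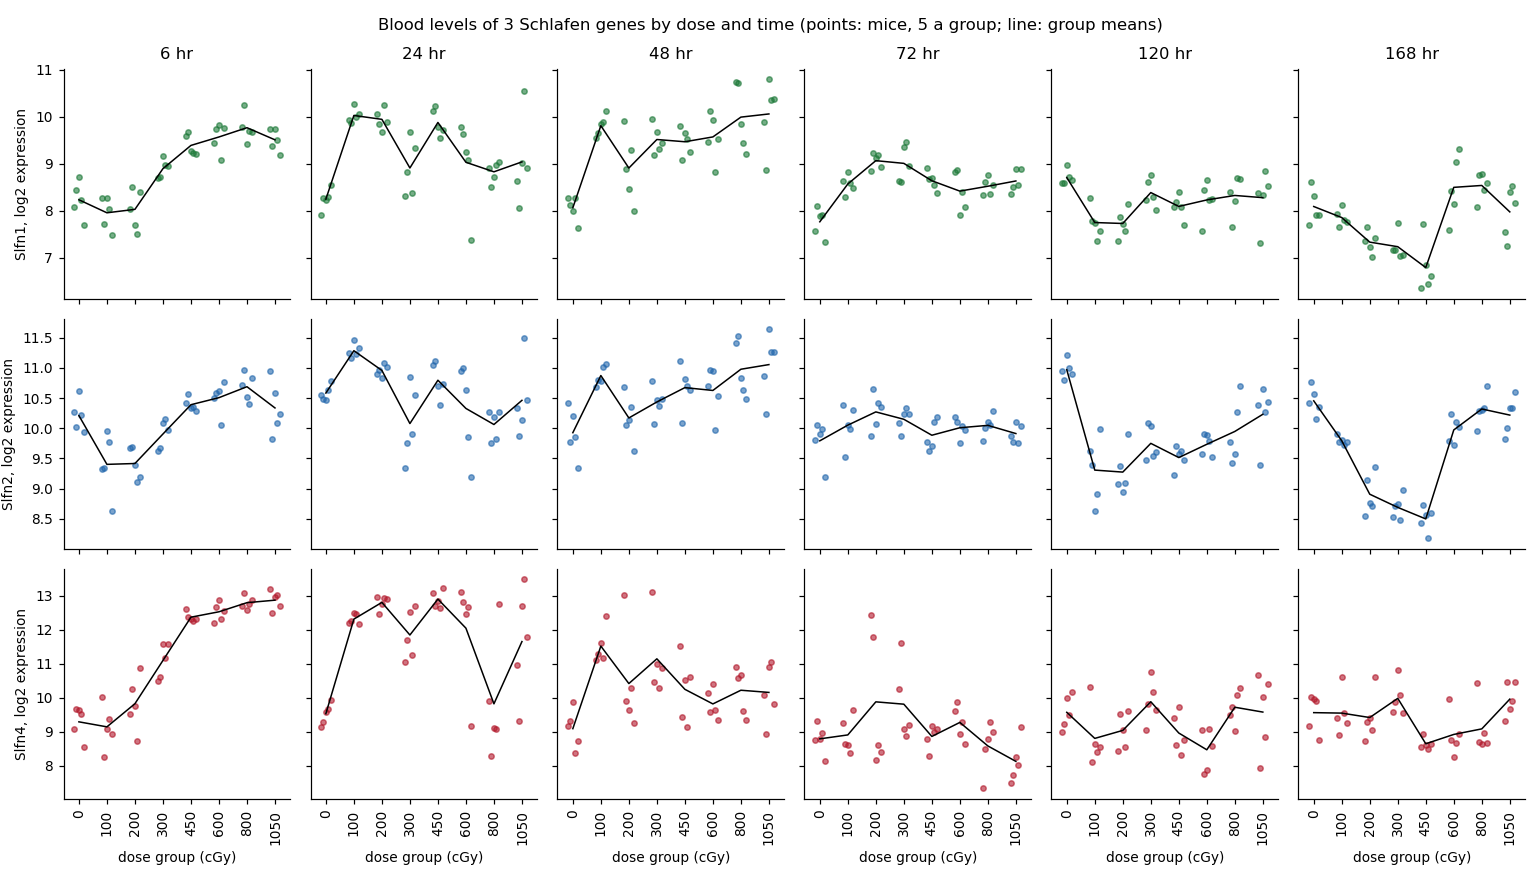
Log2 expression of Slfn1, Slfn2 and Slfn4 in every mouse of the dose-time set, with 1 panel per gene and sampling time, dose group in cGy on the x axis, points for mice and a line through the group means. At 6 hr the Slfn4 mice given 450 cGy or more sit between 12.22 and 13.21, above the unirradiated mice at 8.56 to 9.68, and at 120 hr every irradiated mouse is below the unirradiated mice in Slfn2.

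The sample titles carry a code that takes 5 values in the dose-time set, each with 1 mouse of every group; the labels do not say what it stands for. With this code as a block in the fit, 218 of 219 member results kept their direction and side of the threshold and the other one came to pass it. Before the results, the 24 hr groups given 600 and 800 cGy need describing, because 1 mouse of each stood apart from its group and these mice share a title code. At 600 cGy, Slfn4 stood at 13.12, 12.82, 12.48 and 12.67 in 4 mice and at 9.18 in mouse 5. At 800 cGy it stood at 9.90, 8.28, 9.12 and 9.08 in 4 mice and at 12.75 in mouse 10. The T cell markers (mean of the list) were at 6.22 to 7.47 in 4 of the 600 cGy mice and at 8.33 in mouse 5, whereas they were at 9.34 to 9.64 in 4 of the 800 cGy mice and at 6.84 in mouse 10. The unirradiated mice at 24 hr had 9.32 to 9.62. In Slfn4 and in the T cell markers, therefore, 4 mice of the group labelled 800 cGy were nearer to unirradiated mice than 4 mice of the group labelled 600 cGy. The part of the labels in this was not tested, and values with and without the mice of that code follow.

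At 6 hr, the higher doses raised Slfn1 and Slfn4 and the lowest doses lowered Slfn2. Slfn4 stood at 10.51, 10.63, 11.60, 11.19 and 11.58 in the mice given 300 cGy, at 12.61, 12.38, 12.31, 12.25 and 12.33 at 450 cGy, and at 12.22, 12.69, 12.88, 12.32 and 12.57 at 600 cGy. After 800 cGy it stood at 12.70, 13.09, 12.59, 12.76 and 12.88, and after 1050 cGy at 13.21, 12.50, 12.96, 13.02 and 12.70. None of these 25 mice overlapped with the unirradiated mice, while 100 and 200 cGy left the groups overlapping. Relative to 0 cGy, Slfn4 rose by 1.80 at 300 cGy, 3.08 at 450, 3.24 at 600, 3.51 at 800 and 3.58 at 1050 cGy (SE 0.51 each, limma adjusted p = 9.99e-10 for the last). Slfn1 rose at the same 5 doses, by 0.66, 1.15, 1.33, 1.53 and 1.27 (SE 0.26). The mice given 300 cGy overlapped with the unirradiated mice in Slfn1, and that call was lost in 3 of the 5 fits that each left out the mice of a title code. Slfn2 fell by 0.81 at 100 cGy and by 0.79 at 200 cGy (SE 0.22) and passed at no other dose in the fit to all groups. At 800 cGy it differed by 0.48. It came to pass there after quantile normalisation (0.50, adjusted p = 0.0379), without arrays of high Alb (0.52, adjusted p = 0.0362) and with only the compared groups fitted (adjusted p = 0.0144). Its mice stood at 9.32, 9.34, 9.96, 9.77 and 8.63 after 100 cGy and at 9.68, 9.69, 9.40, 9.11 and 9.20 after 200 cGy, so that only 1 of these 10 reached the unirradiated range. Of all genes, 30%, 44.7%, 47.9%, 37.5%, 49.0%, 35.0% and 51.7% passed the test at the 7 doses from 100 to 1050 cGy, so a call at these doses is common among genes.

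As a slope over dose at 6 hr, Slfn4 rose by 0.41 per 100 cGy (adjusted p = 2.35e-19), Slfn1 by 0.18 (adjusted p = 1.18e-14) and Slfn2 by 0.088 (adjusted p = 1.81e-06), with SE 0.037, 0.020 and 0.016. For Slfn2 the slope ran from a level below the unirradiated mice at the lowest doses to differences of 0.30, 0.48 and 0.13 at 600, 800 and 1050 cGy. A slope passed the test in 34.7% of genes. The companion lists give the setting. Of 28 measured interferon response genes, 23 rose with dose and 0 fell (median slope 0.069 against 0.0044 over all genes), with Ifit3 at 0.30 and Oas2 at 0.16 per 100 cGy. Of 23 genes of LPS and NF-kB signalling, 15 rose and 1 fell, among them Socs3, a feedback inhibitor of cytokine signalling, at 0.39 and Clec4e, a myeloid receptor, at 0.33. Of 14 quiescence genes 2 rose and 5 fell, and of 7 receptors and kinases of these pathways 1 rose and 2 fell.

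The blood's cell markers moved at the same time. At 600 cGy and 6 hr, all 5 neutrophil markers rose (mean level 9.59 without irradiation, 11.60 after it, with groups from 9.13 to 9.95 and from 11.36 to 11.85) and all 4 B cell markers fell (10.81 to 6.66). All 5 T cell and all 4 NK cell markers fell too. Fewer cells of a type and less RNA per cell cannot be told apart in whole blood, and the part of the changed makeup in the members' levels was not tested.

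At 24 hr, Slfn4 and Slfn1 rose already at the lowest doses. Slfn4 stood at 9.15, 9.30, 9.60, 9.69 and 9.95 without irradiation, at 12.21, 12.25, 12.49, 12.48 and 12.17 after 100 cGy and at 12.98, 12.46, 12.77, 12.94 and 12.92 after 200 cGy. The groups lay more than 2 units apart. Slfn4 rose at every dose but 800 cGy, by 2.78, 3.27, 2.31, 3.37 and 2.52 from 100 to 600 cGy and by 2.12 at 1050 cGy, with 0.29 at 800 cGy (SE 0.51; adjusted p = 1.42e-08 at 450 cGy). Without the mice of the title code named above, the difference was 3.34 at 600 cGy and -0.34 at 800 cGy, and the call at 1050 cGy was lost in 1 of the 5 fits that left out a code (adjusted p = 0.0511). Slfn1 stood at 7.92, 8.28, 8.22, 8.29 and 8.54 without irradiation and at 9.94, 9.87, 10.27, 10.00 and 10.06 after 100 cGy, again without overlap. It rose by 1.78 at 100, 1.70 at 200, 0.66 at 300, 1.63 at 450, 0.78 at 600 and 0.79 at 1050 cGy, while 0.58 at 800 cGy did not pass. The calls at 300, 600 and 1050 cGy were lost in 3, 3 and 2 of the 5 fits that left out a title code, and the 600 cGy difference was 1.27 without mouse 5. Slfn2 passed the test only at 100 cGy, where it rose by 0.70. That call was lost in 3 of the 5 fits that left out a title code and after quantile normalisation (0.57). It was also lost without arrays of high Alb (0.61), where only 2 unirradiated mice were left. Its differences at 300 and 800 cGy (-0.50 and -0.52) did not pass in the fit to all groups. They passed after quantile normalisation (-0.81 and -0.68, adjusted p = 0.000552 and 0.00633) and with dim genes left out (adjusted p = 0.0484 and 0.0494). Slfn2 also passed at 200 cGy (0.37) and 800 cGy with only the compared groups fitted (adjusted p = 0.0185 and 0.0161). Mouse number as a block passed 800 cGy too (-0.62, adjusted p = 0.0272). In fits to the 24 hr mice of the compared groups alone, the calls of Slfn1 at 300, 600 and 1050 cGy and of Slfn4 at 1050 cGy were lost (adjusted p = 0.0642, 0.179, 0.209 and 0.0672). Shares of genes called at 24 hr were 6.76%, 15.8%, 33.7%, 31.6%, 27.9%, 24.9% and 19.9% in order of dose.

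No slope over dose was called at 24 hr for Slfn4 (-0.020 per 100 cGy, adjusted p = 0.679) or Slfn1 (-0.027, adjusted p = 0.25). For Slfn2 the slope was -0.061 (adjusted p = 0.00153), where 38.7% of genes passed. At 200 cGy, 19 of the 28 interferon genes rose and 0 fell, with a median of 1.13 against -0.05 over all genes, Ifit3 at 3.74 and Oas2 at 1.94. At 600 cGy, 17 rose and 1 fell (median 0.87 against 0.07). Over the doses from 0 to 1050 cGy, the neutrophil markers' mean was 9.87, 11.18, 10.96, 9.95, 11.23, 10.61, 9.75 and 10.15. It was thus highest at 100, 200 and 450 cGy, where Slfn4 and Slfn1 also had their highest means, and lowest at 800 cGy. Its part in the members' levels was not tested. Hepatocyte markers varied at 24 hr even without irradiation, with means from 5.41 to 12.35 in the 5 mice.

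**Figure D2:**
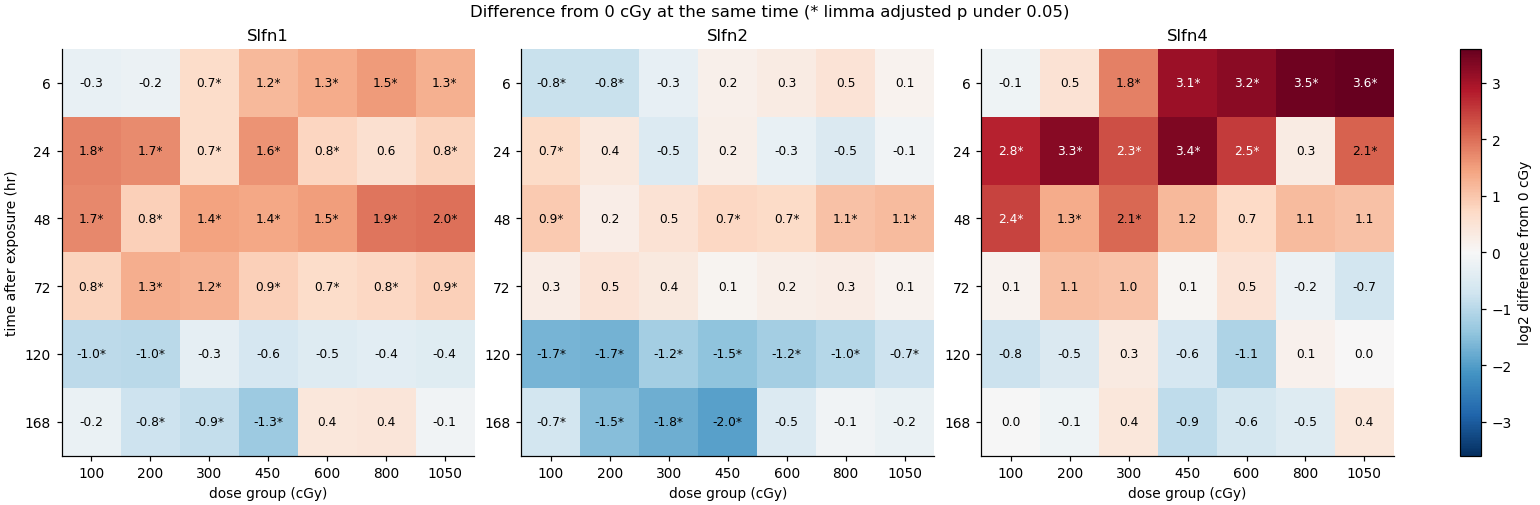
Difference of each dose group's mean log2 expression from the 0 cGy mice of the same sampling time, with dose in cGy on the x axis, sampling time in hr on the y axis, colour and printed value for the difference, and an asterisk where limma's adjusted p was under 0.05. Slfn4 is highest at 6 hr (3.58 at 1050 cGy) and 24 hr (3.37 at 450 cGy), Slfn1 stays higher to 72 hr, and Slfn2 is lowest at 120 and 168 hr (-1.95 at 450 cGy).

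At 48 hr, Slfn1 rose at all 7 doses. It stood at 8.28, 8.13, 8, 8.28 and 7.64 without irradiation and at 9.88, 8.86, 10.80, 10.36 and 10.38 after 1050 cGy. The differences were 1.74, 0.84, 1.45, 1.40, 1.5, 1.93 and 1.99 in order of dose (adjusted p = 2.11e-11 at 1050 cGy). Of the 35 irradiated mice, 34 were above every unirradiated mouse. Slfn2 rose at 5 doses, by 0.95 at 100, 0.75 at 450, 0.70 at 600, 1.05 at 800 and 1.13 at 1050 cGy. The 600 cGy call was lost in 1 of the 5 fits that left out a title code. Leaving out the arrays that had the liver gene Alb at 10 or more kept only 2 unirradiated mice. It kept 2 mice each at 100, 450 and 600 cGy and 1 at 1050 cGy. The Slfn2 calls at 100, 450 and 600 cGy were then lost (0.65, 0.66 and 0.64, adjusted p from 0.0951 to 0.168). Their SE was 0.30, against 0.22 with all arrays, and the part of the smaller number of mice was not tested. At 1050 cGy the difference was 0.75. After quantile normalisation the Slfn2 calls at 450, 600 and 800 cGy were lost (0.19, 0.11 and 0.44), and so was that of Slfn1 at 200 cGy (0.42). The share of all genes called at these doses was 36.1%, 47.4%, 37.6%, 41.4%, 43.8%, 50.3% and 50.3%.

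Slfn4 rose at 48 hr only at 100, 200 and 300 cGy, by 2.43, 1.33 and 2.05. Its mice stood at 9.18, 9.33, 9.87, 8.38 and 8.73 without irradiation and at 11.13, 11.30, 11.61, 11.18 and 12.42 after 100 cGy, with no overlap. After 200 cGy, by contrast, 1 mouse stood at 13.03 and the others at 9.90, 9.64, 10.29 and 9.26. Without the mice of the title code that holds the high mouse, the difference was 0.70 (adjusted p = 0.233). The call was lost in 2 of the 5 fits that left out a code and after quantile normalisation (0.79). Without arrays of high Alb, which left 1 mouse at 200 cGy and 2 unirradiated mice, the difference was 1.04. After 300 cGy, 1 mouse stood at 13.12 and the others at 10.46, 11.01, 10.29 and 10.89, and the difference without the mice of the same code was 1.59 (adjusted p = 0.00763). At 450 cGy and above, Slfn4 differed from 0 cGy by 0.73 to 1.16 and did not pass, although 450 and 800 cGy came to pass with arrays centred on their median (1.24 and 1.22, adjusted p = 0.0398 and 0.0383), with dim genes left out and in fits to the compared groups alone. The last also passed 1050 cGy (1.07, adjusted p = 0.0346), as did mouse number as a block at 800 and 1050 cGy (1.68 and 1.54). Slopes over dose at 48 hr were 0.13 for Slfn1 (adjusted p = 1.71e-09), 0.082 for Slfn2 (adjusted p = 3.28e-06) and -0.024 for Slfn4 (adjusted p = 0.632), with 47.3% of genes called. Neutrophil markers averaged 9.40 without irradiation and 9.67 to 11.17 in the irradiated groups.

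At 72 hr, Slfn1 alone of the members was called at any dose in the fit to all groups. It rose at all 7, by 0.80, 1.30, 1.24, 0.87, 0.65, 0.76 and 0.87. Its mice stood at 7.57, 8.11, 7.90, 7.92 and 7.34 without irradiation and at 8.85, 9.23, 9.12, 9.19 and 8.94 after 200 cGy, with no overlap. The calls at 100, 600 and 800 cGy were lost in 4, 2 and 1 of the 5 fits that left out a title code. After quantile normalisation only 200 and 300 cGy stayed called, with 0.62, 0.52, 0.24, 0.37 and 0.55 at the other doses in order. Genes called at 72 hr made up 13.8%, 39.0%, 44.6%, 47.1%, 56.9%, 54.3% and 50.4% of all in order of dose. Slfn4 differed by 1.09 at 200 cGy and 1.02 at 300 cGy without passing in the fit to all groups. At 300 cGy it passed with mouse number as a block (1.49, adjusted p = 0.0147). At 200 cGy it passed in a fit that left out a title code (adjusted p = 0.0332). After 200 cGy its mice stood at 12.43, 11.79, 8.18, 8.63 and 8.41, so that 2 of them were far above every unirradiated mouse (8.14 to 9.33) and 3 were not. The slope of Slfn4 over dose was -0.092 (adjusted p = 0.0301), against 53.4% of genes with a called slope. It did not pass in 3 of the 5 fits that left out a title code or in the fit to the 72 hr mice alone (adjusted p = 0.0679). Without the arrays with high Alb, which left 1 mouse at 600 cGy, it was -0.036.

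The scattered Slfn4 groups at 48 and 72 hr share a feature of the labels. In 15 groups of the dose-time set the mice's numbers lie both at 10 or below and at 11 or above, and the labels do not say what the number stands for. In 7 of these groups Slfn4 was higher in all the low-numbered mice than in all the high-numbered ones, in 2 groups it was lower, and in 6 the numbers overlapped. The split was not particular to Slfn4. Slfn1 was higher in the low-numbered mice in 5 groups, lower in 8 and overlapping in 2, and for Slfn2 these counts were 4, 7 and 4. At 120 and 168 hr, Slfn1 was lower in the low-numbered mice in every such group (600, 800 and 1050 cGy). Only 1 mouse had a low number after 200 and 300 cGy at 48 hr, after 600 cGy at 120 hr and after 600 and 800 cGy at 168 hr. So few mice on a side often fail to overlap by chance. The share over all genes was not computed, so these counts are not a result about the members. At 48 hr, the mouse at 13.03 after 200 cGy was number 5 and the others were numbers 11 to 14, and the mouse at 13.12 after 300 cGy was number 4. At 72 hr after 200 cGy, the mice at 12.43 and 11.79 were numbers 7 and 10. After 300 cGy, numbers 2 and 6 stood at 10.26 and 11.63 and the others at 8.88 to 9.21. This split was chosen after the values were seen and has no test, and its part in the results at any of these times was not tested.

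**Figure D3:**
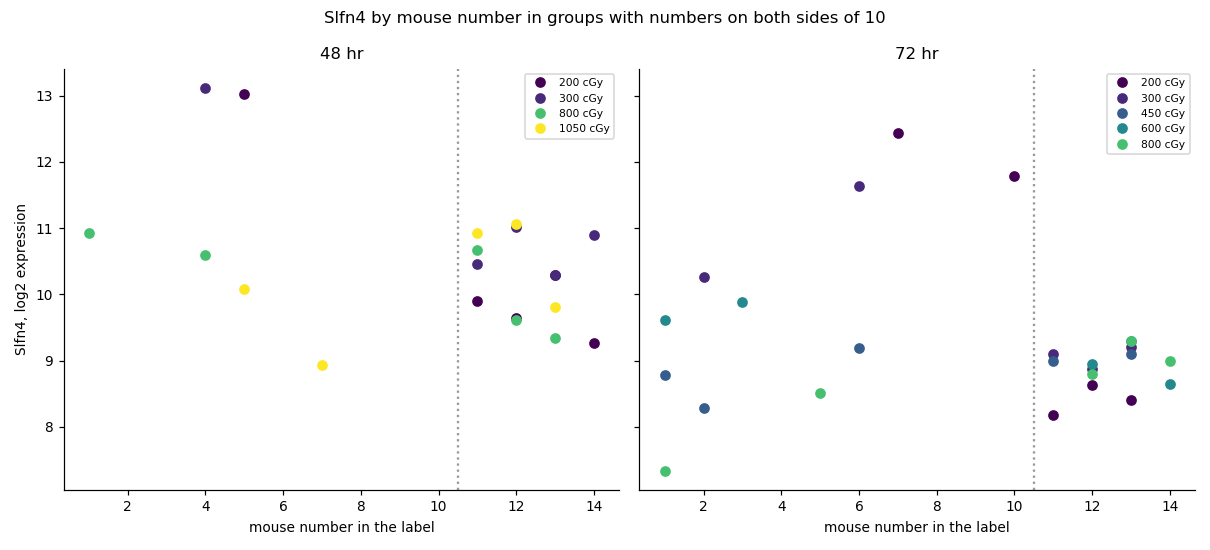
Log2 expression of Slfn4 against the mouse number in the label, for the 48 hr and 72 hr dose groups that hold numbers on both sides of the dotted line at 10, with 1 point per mouse and colour for the dose. At 200 and 300 cGy the mice numbered 10 or below stand above those numbered 11 or above, whereas at 800 cGy and 72 hr they stand below them.

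From 120 hr, the direction changed, most of all in Slfn2. Slfn2 stood at 10.94, 10.80, 11.21, 11 and 10.90 in the unirradiated mice at 120 hr, at 9.62, 9.39, 8.63, 8.91 and 9.99 after 100 cGy and at 9.07, 9.37, 8.95, 9.09 and 9.90 after 200 cGy. All 35 irradiated mice were below every unirradiated mouse. It fell at all 7 doses, by 1.66, 1.69, 1.22, 1.45, 1.23, 1.02 and 0.74 (SE 0.22; adjusted p = 2.65e-11 at 200 cGy). Slfn1 fell by 0.96 at 100 cGy and 0.98 at 200 cGy. In the fit to all groups it did not pass at higher doses, where it differed by -0.61 to -0.32. Its 450 cGy mice were all below the unirradiated mice. That difference (-0.61) passed with title code or mouse number as a block (adjusted p = 0.0469 and 0.045) and with dim genes left out (adjusted p = 0.0419). The fit to the compared groups alone passed 450 and 600 cGy (-0.61 and -0.48, adjusted p = 0.0018 and 0.0427). After quantile normalisation the Slfn1 differences at 100 and 200 cGy were -0.35 and -0.51 and no longer called (adjusted p = 0.245 and 0.0937), while all 7 Slfn2 calls remained. Slfn4 passed at no dose. The unirradiated mice were themselves high in Slfn2 at 120 hr, as given above. The 120 hr background was 71.3%, 67.1%, 43.5%, 40.9%, 46.2%, 54.7% and 50.1% of genes called, with 82.4% for the slope over dose, which passed for none of the members. It was -0.042 for Slfn1 and -0.057 for Slfn2 after quantile normalisation, and -0.37 for Slfn2 over the doses left without arrays of high Alb, all of these called.

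At 168 hr, Slfn2 and Slfn1 fell at intermediate doses. Slfn2 stood at 10.42, 10.77, 10.56, 10.15 and 10.36 without irradiation and at 8.44, 8.73, 8.56, 8.18 and 8.59 after 450 cGy, the lowest group of the set, with no overlap. After 600 cGy it stood at 9.79, 10.23, 9.72, 10.10 and 10.02, partly within the unirradiated range. The differences were -0.66, -1.55, -1.76 and -1.95 from 100 to 450 cGy, all called (adjusted p = 7.34e-15 at 450 cGy), and -0.48, -0.13 and -0.24 above, none called. The call at 100 cGy was lost in 2 of the 5 fits that left out a title code. Slfn1 stood at 7.71, 8.62, 8.31, 7.91 and 7.91 without irradiation and at 6.36, 7.72, 6.85, 6.44 and 6.61 after 450 cGy, its lowest group, where the ranges just touched. After 200, 300 and 450 cGy it fell by 0.76, 0.85 and 1.30, the first of these lost in 1 such fit. After quantile normalisation the first and the second were lost (-0.36 and -0.40), as was that of Slfn2 at 100 cGy (-0.52), and Slfn2 was then lower at 600, 800 and 1050 cGy too (-0.86, -0.47 and -0.65). Slfn4 passed at no dose. Called genes at 168 hr made up 15%, 58.8%, 72.7%, 68.2%, 42%, 53.6% and 60.0% of all, and 82.2% had a called slope. The slopes of Slfn1 and Slfn2 over all doses were 0.057 and 0.059 (adjusted p = 0.00554 and 0.000453), although both fell over the lower doses. Neither slope passed after quantile normalisation (0.0059 and -0.0093) or with mouse number as a block (0.040 and 0.032), and over the doses left without arrays of high Alb they were -0.36 and -0.65.

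**Figure D4:**
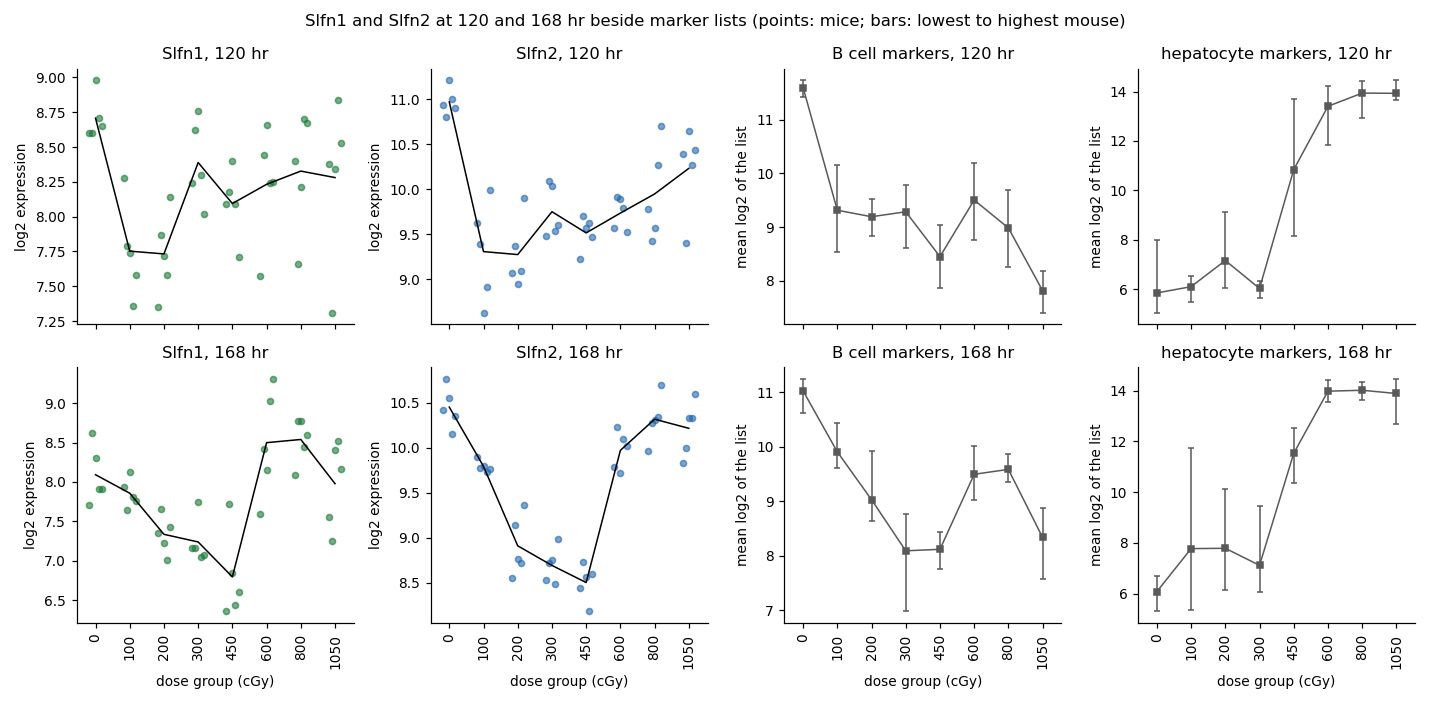
Log2 expression of Slfn1 and Slfn2 in every mouse at 120 and 168 hr by dose group in cGy (points, with a line through the group means), beside the mean log2 level of the B cell and the hepatocyte markers (squares for group means, bars from the lowest to the highest mouse). At 168 hr the Slfn2 mice given 450 cGy sit between 8.18 and 8.73, and all 5 are below the unirradiated mice at 10.15 to 10.77.

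Other RNA changed at these late times as well. At 450 cGy and 168 hr, all 5 T cell markers (mean 9.54 to 7.10) and all 4 B cell markers (11.02 to 8.12) fell, and all 5 hepatocyte markers rose (6.08 to 11.53). Alb, a liver gene that circulating leukocytes lack, was at 10 or more in all 20 mice given 450 cGy or more at each of the late times and in 0 of the 5 unirradiated mice at each. The highest unirradiated mouse at 120 hr was just below, at 9.999. High Alb was not confined to irradiated mice, since at 24, 48 and 72 hr 3, 3 and 2 of the 5 unirradiated mice were at 10 or more. With the arrays at 10 or more left out, only doses up to 300 cGy remained at the late times. Slfn2 still differed by -1.66, -1.72 and -1.22 at 120 hr and by -0.64, -1.78 and -1.78 at 168 hr at 100, 200 and 300 cGy, all called. The share of all genes called was 67.1% at 200 cGy and 120 hr and 68.2% at 450 cGy and 168 hr, so the counts that follow only describe the lists. Of 14 quiescence genes, 3 rose and 8 fell at 200 cGy and 120 hr (median -0.77 against 0.17 over all genes), with Foxo1, a transcription factor that keeps lymphocytes at rest, at -1.51. At 450 cGy and 168 hr, 3 rose and 10 fell (median -0.82 against 0.16), while of the 7 receptors and kinases 1 rose and 6 fell at either point. Of the 28 interferon genes, 3 rose and 10 fell at 450 cGy and 168 hr. The part of lost lymphocytes in the fall of Slfn2 was not tested.

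Over the 42 comparisons with 0 cGy in the dose-time set, the share of all genes called ran from 6.76% (100 cGy, 24 hr) to 72.7% (300 cGy, 168 hr). Counts of calls therefore describe the members and are not a result about the family. Slfn1 rose in 25 of the 42 comparisons and fell in 5, Slfn2 rose in 6 and fell in 13, and Slfn4 rose in 14 and fell in 0. In fits to the compared groups alone, however, Slfn4 was called lower after 600 cGy at 120 hr (-1.10, adjusted p = 0.0103), 450 cGy at 168 hr (-0.92, adjusted p = 0.00168) and 100 cGy at 120 hr (-0.77, adjusted p = 0.0457), the first of them also with arrays centred or quantile normalised. Both 120 hr differences were called in 1 of the 5 fits that left out a title code as well (-1.39 and -1.29). Of the 63 calls in the fit to all groups, 13 were lost in at least 1 of the fits that left out a title code (8 of Slfn1, 3 of Slfn2 and 2 of Slfn4). Of the 63 comparisons not called, 11 became called in at least 1 such fit. That the slope over dose differed between the 6 times was tested within the fit. It passed for Slfn4 (F = 22.9, adjusted p = 2.04e-17), Slfn1 (F = 15.9, adjusted p = 1.05e-12) and Slfn2 (F = 13.2, adjusted p = 9.55e-11), as it did for 92.3% of genes.

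In order of level, the highest Slfn4 groups were 450 cGy at 24 hr (12.91 ± 0.24, SD, n = 5) and 1050 cGy at 6 hr (12.88 ± 0.28), which did not differ beyond their spread, and the lowest was 1050 cGy at 72 hr (8.13 ± 0.64). For Slfn1 the highest were 1050 cGy at 48 hr (10.06 ± 0.74) and 100 cGy at 24 hr (10.03 ± 0.15), again within their spread, and the lowest was 450 cGy at 168 hr (6.80 ± 0.55). For Slfn2 the highest was 100 cGy at 24 hr (11.28 ± 0.12) and the lowest was 450 cGy at 168 hr (8.50 ± 0.21). Of the 47 neighbouring pairs in the order of 48 groups, the gap between means was within the larger SD of the pair in 45 for Slfn1, 46 for Slfn2 and 47 for Slfn4. The exceptions were Slfn1 at 450 cGy, 6 hr, over 200 cGy, 72 hr (9.39 and 9.07), and at 200 cGy, 120 hr, over 200 cGy, 168 hr (7.73 and 7.34), and Slfn2 at 600 over 450 cGy at 120 hr (9.74 and 9.52).

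The members' responses to 600 cGy were compared with each other by subtracting 1 gene from another in each mouse, over 18 comparisons (exact two-sided permutation test of 5 against 5 mice, whose smallest p is 0.0079). At 6 hr, the response of Slfn4 exceeded that of Slfn1 by 1.90 (SE 0.12) and that of Slfn2 by 2.94 (SE 0.21), and that of Slfn1 exceeded that of Slfn2 by 1.04 (SE 0.13). At 24 hr the same differences were 1.73, 2.77 and 1.04 (exact p = 0.0079, adjusted 0.0179, for each at either time), and 2.07, 3.26 and 1.19 without the mice of the title code named above. The response of Slfn1 stayed above that of Slfn2 at 48, 72, 120 and 168 hr, by 0.81, 0.43, 0.76 and 0.89 (exact test, adjusted p = 0.0179, 0.0286, 0.0179 and 0.0286). From 48 hr on, Slfn4 differed from the others by -1.05 to 0.27 without passing.

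Across the 48 group means, Slfn1 and Slfn2 had a Pearson correlation of 0.87, Slfn1 and Slfn4 of 0.70, and Slfn2 and Slfn4 of 0.54. Group means share arrays and sampling times, so these are descriptions. The genes most like Slfn1 in this measure were Lyst (0.91), Slc35a5 (0.90), Cep19 (0.90), Junb (0.89) and Cebpd (0.88), and the least like it were Pepd (-0.84) and Pld3 (-0.81). For Slfn2 they were Krr1 (0.92), Mcl1 (0.91), Lyst (0.91), Irf9 (0.89) and Cep19 (0.89), with Mettl27 (-0.82) and Mgst3 (-0.79) least like it. For Slfn4 they were Ddx60 (0.92), Rtp4 (0.90), Hnmt (0.84), Clec4e (0.84) and Ifi204 (0.83), with Noa1 (-0.73) and Cdca7l (-0.70) least like it. Lyst and Cep19 stand in both the Slfn1 and the Slfn2 list, and none of the Slfn4 genes stands in either.

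Of the other family genes, Slfn8 correlated over the group means with Slfn2 at 0.78, with Slfn4 at 0.77 and with Slfn1 at 0.70. It rose by 1.2 at 100 cGy and 24 hr and fell at all 7 doses at 120 hr, by 1.2 at 200 cGy. Slfn3 was dim, between 2.81 and 4.4 on all arrays, and passed at 1 dose of the dose-time set, 200 cGy at 6 hr (0.40). In the sex and treatment set at 6 hr it was higher with LPS at 0 cGy (0.27) and 600 cGy (0.23) and rose with dose under GCSF (0.061 per 100 cGy). A further probe set that matches both Slfn4 and Slfn3 correlated with the Slfn4 probe set at 0.976 and with that of Slfn3 at 0.309.

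LPS without irradiation raised Slfn4 most. In the sex and treatment set at 6 hr, Slfn4 had a lowest, median and highest value of 9.30, 11.05 and 11.72 in the 10 mice without agent or irradiation and of 13.22, 13.62 and 13.73 in the 8 mice given LPS. At 24 hr these values were 9.44, 9.91 and 10.51 without agent (10 mice) and 13.10, 13.27 and 13.71 with LPS (9 mice). The groups did not overlap at either time. Slfn4 rose by 2.76 (SE 0.28, adjusted p = 9.46e-16) and 3.48 (SE 0.27, adjusted p = 1.16e-24). Slfn1 rose by 1.03 at 6 hr (SE 0.29, adjusted p = 0.003; up to 0.0503 when 1 mouse per group was left out) and by 1.93 at 24 hr (SE 0.27, adjusted p = 1.37e-09). Its 24 hr values were 7.83, 8.17 and 8.39 without agent and 8.75, 10.24 and 10.86 with LPS. Slfn2 differed by 0.44 and 0.57 and passed at neither time (adjusted p = 0.169 and 0.102). LPS changed 35.2% of all genes at 6 hr and 21.9% at 24 hr. Of the 28 interferon genes 26 rose at 6 hr and 25 at 24 hr (medians 1.72 and 1.45), with Oasl1 at 3.13 and Ifih1 at 2.76 at 6 hr. All B cell and T cell markers fell at 6 hr while 2 of 5 neutrophil markers rose, and all 5 rose at 24 hr.

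In the small treatment set at 6 hr, LPS raised Slfn4 by 2.50 (adjusted p = 5.15e-09) and Slfn2 by 0.51 (adjusted p = 0.00353), where 26.2% of genes were called. Slfn1 differed by 0.44 (adjusted p = 0.144). The 6 LPS mice stood at 13.14, 13.28, 13.30, 13.11, 13.05 and 13.22 in Slfn4, above all 6 mice without agent, which ran from 9.29 over a median of 10.49 to 12.65. All 28 interferon genes rose there (median 1.73). Of the cell markers, 2 of 5 neutrophil and 2 of 5 monocyte genes rose, while 5 of 5 T cell, 3 of 4 NK cell and 3 of 5 monocyte genes fell. Their part in the members' values was not tested.

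GCSF without irradiation brought no member past the threshold in the fits to all groups of a set. At 6 hr in the sex and treatment set the differences were 0.17, 0.20 and 0.34 for Slfn1, Slfn2 and Slfn4 (limma adjusted p = 0.999 for each), where 0 of all genes passed (0%, with 283 at an unadjusted p under 0.05). At 24 hr they were -0.21, -0.45 and 0.87, the last with an adjusted p of 0.0947 and 0.549% of genes called. In fits to the compared groups alone, however, Slfn4 and Slfn2 passed at 24 hr (adjusted p = 0.000268 and 0.00375), and Slfn4 also passed after quantile normalisation (1.05, adjusted p = 0.00978). In the small treatment set, where 0.549% of genes passed too, no member was called, although Slfn4 was with mouse number as a block (1.07, adjusted p = 0.00947).

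**Figure D5:**
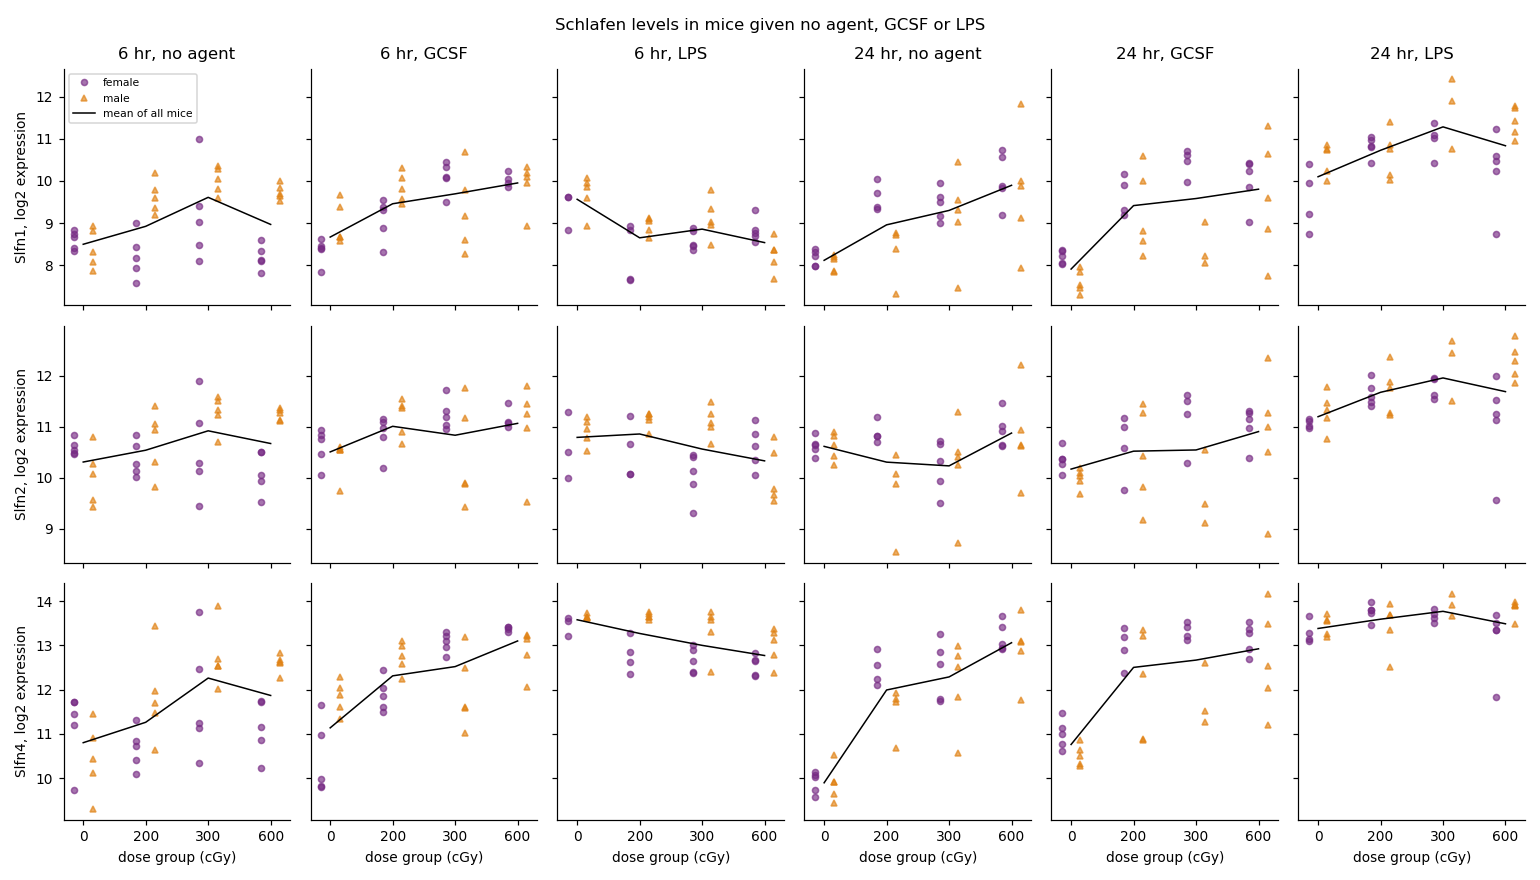
Log2 expression of Slfn1, Slfn2 and Slfn4 in the sex and treatment set by dose group in cGy, with circles for females, triangles for males, a line through the mean of all mice, rows for genes and columns for sampling time and agent. With LPS, Slfn4 is at 13.10 or more at 0 cGy in every mouse, whereas without agent it rises at 24 hr from a median of 9.91 at 0 cGy to 13.06 at 600 cGy.

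LPS also altered the response to dose. In mice without agent, the slope of Slfn4 over dose was 0.19 per 100 cGy at 6 hr (SE 0.043, adjusted p = 0.000474) and 0.50 at 24 hr (adjusted p = 3.47e-21). With LPS it was -0.13 at 6 hr (adjusted p = 0.0217) and 0.017 at 24 hr (adjusted p = 0.818). Leaving out 1 mouse per group ended the first call in 1 of 5 fits and the LPS call at 6 hr in 3 of 5. The difference between these slopes passed at 6 hr (-0.32, adjusted p = 0.00015) and at 24 hr (-0.48, adjusted p = 2.89e-10), among 6.45% and 16.5% of genes. With LPS, the mean of Slfn4 at 0 and 600 cGy was 13.58 and 12.77 at 6 hr and 13.38 and 13.49 at 24 hr. Its highest value on any array was 14.17. The part of the high level at 0 cGy in the slopes with LPS was not tested. Slfn1 behaved alike at 6 hr, with a slope of 0.079 without agent, -0.14 with LPS (adjusted p = 0.0126) and a difference of -0.22 (adjusted p = 0.0152), which passed in all but 2 of those 5 fits. At 24 hr its slope was 0.29 without agent (adjusted p = 4.23e-09) and 0.13 with LPS (adjusted p = 0.0409, lost in all 5 fits), a difference of -0.16 that missed the threshold (adjusted p = 0.0539). Slfn2 had a slope of 0.062 without agent and -0.078 with LPS at 6 hr, neither called, and the difference did not pass (adjusted p = 0.165). Slopes were called in 19.9% of genes without agent and 32.2% with LPS at 6 hr, and in 41.2% and 13% at 24 hr.

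With GCSF, Slfn4 rose with dose by 0.32 per 100 cGy at 6 hr (adjusted p = 8.96e-10) and 0.33 at 24 hr (adjusted p = 1.24e-10), and Slfn1 by 0.21 (adjusted p = 6.81e-05) and 0.29 (adjusted p = 1.84e-08). Slfn2 rose by 0.12 at 24 hr (adjusted p = 0.0178, lost in 2 of 5 fits that left out 1 mouse per group and in the fit to those groups alone), not at 6 hr (0.083, adjusted p = 0.0812). Slopes with GCSF passed in 52.6% and 30.6% of genes. None of the members' slopes differed between GCSF and no agent by the test, which 0.0161% of genes passed at 6 hr (2 genes, with 939 at an unadjusted p under 0.05) and 0.00807% at 24 hr (1 gene, with 862).

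At 600 cGy, mice with an agent were compared directly with those without. LPS mice were 0.90 higher in Slfn4 at 6 hr (adjusted p = 0.00291) and differed by 0.43 at 24 hr (adjusted p = 0.227). In Slfn1 they were 0.94 higher at 24 hr (adjusted p = 0.0035), with -0.43 at 6 hr not called. In Slfn2 they were 0.81 higher at 24 hr (adjusted p = 0.00725), with -0.34 at 6 hr not called. GCSF mice were 1.26 higher in Slfn4 (adjusted p = 0.00183) and 0.99 higher in Slfn1 (adjusted p = 0.0422) at 6 hr, and no member passed at 24 hr. Leaving out 1 mouse per group ended the GCSF call of Slfn1 in 4 of 5 fits and that of Slfn4 in 1, and the 24 hr LPS calls of Slfn1 in 1 and Slfn2 in 2. With mouse number as a block both of these LPS calls were lost (0.64 each, adjusted p = 0.17 and 0.145), and that of Slfn1 also in the fit to the compared groups alone (adjusted p = 0.0781). The background was 56.5% and 24.9% of genes for LPS and 0.992% and 1.69% for GCSF at 6 and 24 hr.

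Female and male mice without agent responded differently to dose at 6 hr, a comparison added after the values were seen. In females, Slfn4 stood at 11.71, 11.21, 9.72, 11.72 and 11.44 at 0 cGy and at 10.22, 10.87, 11.74, 11.73 and 11.15 at 600 cGy, with the groups overlapping. In males it stood at 10.42, 10.90, 9.30, 11.44 and 10.12 at 0 cGy and at 12.59, 12.27, 12.67, 12.83 and 12.62 at 600 cGy, with no overlap. The slope in females minus that in males was -0.32 for Slfn4 (adjusted p = 0.00548), -0.28 for Slfn2 (adjusted p = 0.0132) and -0.25 for Slfn1 (adjusted p = 0.0404), where 10.3% of genes passed. Leaving out 1 mouse of each group in turn gave adjusted p from 0.0684 to 0.116 for Slfn1, so that call was lost each time, and up to 0.0954 for Slfn2 and 0.0616 for Slfn4. The neutrophil markers moved in the same way, with a mean of 11.24 and 10.14 in females at 0 and 600 cGy and of 10.83 and 12.33 in males, and their part was not tested. With GCSF the difference in Slfn4 ran the other way, at 0.34 (adjusted p = 0.00514; 11.6% of genes), and with LPS no member passed (8.63%). At 24 hr no member passed under any agent, where 0% (limma, 296 genes at an unadjusted p under 0.05), 0.00807% (1 gene, with 3004) and 0.25% of genes were called without agent, with GCSF and with LPS. Averaged over all groups, females differed from males by -0.09, -0.03 and -0.07 in Slfn1, Slfn2 and Slfn4, none called, while 51.4% of genes were.

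In the small treatment set at 6 hr, 600 cGy without agent raised Slfn4 by 1.87 (adjusted p = 4.09e-05), Slfn1 by 1.22 (adjusted p = 0.000265) and Slfn2 by 0.66 (adjusted p = 0.00138), where 7.38% of genes passed and all 5 neutrophil markers rose. At 150 cGy Slfn1 rose by 0.87 (adjusted p = 0.0156) and Slfn4 by 1.01 (adjusted p = 0.0408), against 3.83% of genes, and both calls were lost in the fit to these groups alone (adjusted p = 0.248 and 0.373) and in 4 and 5 of 6 fits that left out 1 mouse per group. With GCSF, 600 cGy raised Slfn4 by 1.64, Slfn1 by 1.05 and Slfn2 by 0.39 (adjusted p = 7.42e-05, 0.00056 and 0.0411; 25.0% of genes), the last lost in 4 of those 6 fits, and 150 cGy changed no member (1.77%). With LPS neither dose changed a member (3.58% of genes at 150 cGy and 16% at 600 cGy). The response of Slfn4 to 600 cGy differed by -1.77 with LPS from that without agent (adjusted p = 0.0136; 3.15% of genes), lost in 4 of the 6 fits. For Slfn1 and Slfn2 the same difference was -0.81 (adjusted p = 0.169) and -0.43. For GCSF no member passed, nor did many genes (0.0323%, 4 genes, with 2061 at an unadjusted p under 0.05).

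In the small 7 day set, 150 cGy lowered Slfn2 and Slfn1 after 168 hr. Slfn2 stood at 11.17, 10.60 and 11.02 in the 3 unirradiated mice and at a lowest, median and highest value of 9.21, 9.94 and 10.44 in the 10 irradiated mice, with no overlap. It fell by 1.04 (SE 0.23, adjusted p = 0.001). Slfn1 fell by 0.79 (SE 0.26, adjusted p = 0.0141), from 9.58, 9.19 and 8.97 to a range of 7.78 to 9.33. Slfn4 differed by -0.22 (adjusted p = 0.649). Of all genes 67.1% passed. All 4 B cell and all 5 T cell markers fell in these mice as well, and 4 of 5 hepatocyte markers rose. The difference in Slfn1 was -0.13 after quantile normalisation (adjusted p = 0.743) and lost its call with mouse number as a block (adjusted p = 0.108) and in 1 of 3 fits that left out 1 mouse per group.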

How the data were processed

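Values were the deposited table of log2 expression per probe set, made by the authors with RMA in the affy package, per the submitters' processing notes, which give no version or settings; depth has no meaning for arrays, and the number of mice limits the precision. Of 22690 probe sets, 64 controls, 1555 without a symbol and 691 with several were left out. The other 20380 stood for 12393 genes, by the brightest probe set for the 4956 genes with several. Repeat scans of 2 mice were averaged.

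Each set was fitted on its own as group means with limma 3.58.1 in R 4.3.3 (data.table, version 1.17.8), with Benjamini-Hochberg adjustment over all genes and a threshold of 0.05 (192, 178, 41 and 14 residual degrees of freedom). A slope is the least-squares trend of group means per 100 cGy, averaged over sexes. Member pairs used the exact permutation test in scipy 1.17.1, adjusted over 18. Tables and plots used Python 3.11.15, pandas 2.3.3, numpy 2.4.6 and matplotlib 3.10.9. The scripts were checked on simulated data.

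The members, companion lists and markers were chosen with earlier results of these data known. Genes named beside the members were the 5 most and 2 least like each, and the list members that passed with the smallest p. Alternatives were quantile normalisation, array centring, averaging all probe sets of each gene, dropping dim genes, fitting only the groups compared, title code or mouse number as a block, leaving out mice in turn and leaving out arrays with high Alb. With group means taken out, mice of the same number in different groups correlated at a mean of 0.02, 0.04, 0.06 and -0.13 in the 4 sets. Mice of other numbers correlated at -0.002, -0.007, -0.006 and 0.02. Numbers were therefore not used to pair mice, although a low mean cannot exclude a link of some levels with the number. RefSeq promoters were matched by symbol for all 3 members. Protein sequences were not used here.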

Additional observations from a re-analysis of the deposited data

Results flagged for a closer look

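Over 309 combinations of a member gene and a group of 4 to 10 mice, 17 values of 16 mice stood apart from the others of their group, where chance would single out about 5 percent of combinations. In the dose-time set Slfn1 was at 8.98 in 1 unirradiated mouse at 120 hr (others 8.60 to 8.71), at 7.75 in 1 mouse given 300 cGy at 168 hr (others 7.05 to 7.16) and at 7.39 in mouse 5 given 600 cGy at 24 hr (others 9.09 to 9.79). Slfn2 was at 9.20 in 1 unirradiated mouse at 72 hr (others 9.81 to 10.06). Slfn4 was at 10.32 in 1 mouse given 100 cGy at 120 hr (others 8.11 to 8.65), at 13.03 and 13.12 in single mice given 200 and 300 cGy at 48 hr, at 9.18 in mouse 5 given 600 cGy at 24 hr and at 10.44 in 1 mouse given 800 cGy at 168 hr (others 8.64 to 8.98).

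With an agent, Slfn1 was at 8.94 in 1 male given GCSF and 600 cGy at 6 hr (others 9.94 to 10.32), and Slfn2 was at 9.75 in 1 male given GCSF at 6 hr (others 10.54 to 10.61) and at 11.44 in 1 mouse given GCSF in the small treatment set (others 10.83 to 11.03). Slfn4 was at 11.83 in 1 female given LPS and 600 cGy at 24 hr (others 13.35 to 13.69), at 13.48 in 1 male given the same (others 13.88 to 13.97) and at 13.73 in 1 male given LPS at 6 hr (others 13.61 to 13.64). Without agent, it was at 9.72 in 1 female at 0 cGy and 6 hr (others 11.21 to 11.72) and at 10.67 in 1 male given 200 cGy at 24 hr (others 11.72 to 11.92).

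Tests of a difference between responses passed in these cases. The dose slope differed between times for Slfn1 (F = 15.9), Slfn2 (F = 13.2) and Slfn4 (F = 22.9). It differed between LPS and no agent at 6 hr for Slfn1 (-0.22) and Slfn4 (-0.32) and at 24 hr for Slfn4 (-0.48). Between females and males it differed at 6 hr without agent for Slfn1 (-0.25), Slfn2 (-0.28) and Slfn4 (-0.32) and with GCSF for Slfn4 (0.34). The response of Slfn4 to 600 cGy differed between LPS and no agent in the small treatment set (-1.77).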

How the results depend on the processing

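Quantile normalisation changed most. It turned the dose slopes of Slfn1 and Slfn2 at 120 hr to -0.042 and -0.057 (adjusted p = 0.0404 and 0.000275) and that of Slfn2 at 168 hr to -0.0093, ended the calls of Slfn1 at 168 hr (0.0059), with LPS at 6 hr (-0.094) and in the 7 day set (-0.13) and of Slfn2 for 600 cGy with GCSF in the small set (0.28), and turned Slfn2 at 450 and 1050 cGy and 72 hr to -0.51 and -0.50. It newly passed Slfn2 slopes at 72 hr (-0.047), with GCSF at 6 hr (0.089) and with LPS at 24 hr (0.098), LPS at 0 cGy for Slfn2 (0.60 at 6 hr, 0.56 at 24 hr) and for Slfn1 in the small set (0.58), Slfn4 for GCSF at 0 cGy (1.05) and LPS at 600 cGy (0.65) at 24 hr, and Slfn1 for 150 cGy with GCSF (0.79). Without arrays at high Alb, the slopes of Slfn2 at 120 hr, Slfn1 at 168 hr and Slfn2 at 168 hr, over the doses left, turned to -0.37, -0.36 and -0.65 (adjusted p = 5.5e-07, 1.69e-06 and 4.15e-14). At 24 and 72 hr this left 1 mouse in some groups, and the slopes of Slfn2 at 24 hr and Slfn4 at 72 hr were -0.046 and -0.036. With dim genes left out, the LPS slope difference of Slfn1 at 24 hr passed (-0.16). The cause was not tested.

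With only the groups compared in the fit, calls were lost for Slfn4's slope at 72 hr (-0.092), Slfn2's slope with GCSF at 24 hr (0.12), Slfn1 for LPS at 600 cGy and 24 hr (0.94) and, in the small set, for 150 cGy (Slfn1 0.87, Slfn4 1.01) and 600 cGy (Slfn2 0.66 without agent, 0.39 with GCSF). Calls were gained for Slfn1 for LPS at 600 cGy and 6 hr (-0.43), at 24 hr and 0 cGy for GCSF (Slfn2 -0.45, Slfn4 0.87) and LPS (Slfn2 0.57), and for Slfn4 at 150 cGy with LPS (0.40). Mouse number as a block, which the other fits leave out, gave 0.040 and 0.032 for the 168 hr slopes of Slfn1 and Slfn2. It gave 0.64 for both at 600 cGy with LPS and 24 hr, and -0.82 for Slfn1 in the 7 day set. None of these was called. With this block the LPS slope difference of Slfn1 at 24 hr (-0.21), and in the small set Slfn1 for 150 cGy with GCSF (0.72), LPS (0.63) and the LPS difference (-1.01) and Slfn4 for GCSF (1.07), passed.

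Leaving out 1 mouse per group in turn changed a call in these ranges. In the sex and treatment set, slopes ran from 0.12 to 0.22 (Slfn4, no agent, 6 hr), -0.14 to -0.11 (Slfn4, LPS, 6 hr), -0.16 to -0.12 (Slfn1, LPS, 6 hr), 0.10 to 0.15 (Slfn1, LPS, 24 hr), 0.065 to 0.12 and 0.087 to 0.15 (Slfn2, GCSF, 6 and 24 hr), and LPS slope differences of Slfn1 from -0.25 to -0.19 at 6 hr and -0.19 to -0.13 at 24 hr. LPS ran from 0.83 to 1.2 (Slfn1, 0 cGy, 6 hr) and, at 600 cGy and 24 hr, 0.65 to 1.27 (Slfn1) and 0.62 to 1.03 (Slfn2), and GCSF at 600 cGy and 6 hr from 0.92 to 1.15 (Slfn1) and 1.15 to 1.48 (Slfn4). In the small set, 150 cGy ran from 0.68 to 1.11, 0.22 to 0.45 and 0.64 to 1.33 (Slfn1, Slfn2, Slfn4), with GCSF 0.59 to 0.84 (Slfn1) and 0.54 to 0.90 (Slfn4), 600 cGy with GCSF 0.28 to 0.47 (Slfn2), LPS 0.27 to 0.74 (Slfn1) and the LPS difference -1.13 to -0.61 (Slfn1) and -2.19 to -1.39 (Slfn4). The 7 day fall of Slfn1 ran from -0.92 to -0.55 and the 72 hr slope of Slfn4 from -0.12 to -0.049. Averaging all probe sets of each gene changed no member call, and array centring changed 4 of 252. Pair differences kept their calls under the scalings; with 4 mice a group they were not tested.

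Counts of all genes called moved by over 1.5 times under at least 1 alternative in these comparisons (main count, then lowest to highest). In the dose-time set they were for the slope 10208 (5210 to 10359) at 120 hr, 4798 (1981 to 6069) at 24 hr, 5865 (3768 to 5958) at 48 hr, 4301 (2801 to 4831) at 6 hr. In the sex and treatment set they were for the agent at 0 cGy 68 (14 to 2874) with GCSF at 24 hr, 4368 (2074 to 5421) with LPS at 6 hr, and for the agent at 600 cGy 210 (5 to 600) with GCSF at 24 hr, 123 (53 to 249) with GCSF at 6 hr, 7000 (4619 to 7383) with LPS at 6 hr, and for the sex 6375 (3737 to 6497), and for the slope difference 1 (0 to 29) with GCSF at 24 hr, 2 (0 to 4) with GCSF at 6 hr, 799 (212 to 1014) with LPS at 6 hr, and for the slope 6521 (4274 to 7458) with GCSF at 6 hr, 1617 (736 to 1893) with LPS at 24 hr, 3985 (1567 to 4472) with LPS at 6 hr, 2470 (1262 to 2753) with no agent at 6 hr. In the small treatment set they were for the agent at 0 cGy 68 (2 to 220) with GCSF, and for the 150 cGy 219 (50 to 492) with GCSF, 444 (105 to 708) with LPS, 475 (0 to 1540) with no agent, and for the 600 cGy 1983 (1182 to 2136) with LPS, 914 (417 to 1659) with no agent, and for the difference of the 600 cGy response 4 (1 to 263) with GCSF, 390 (115 to 648) with LPS. In the small 7 day set they were for the 150 cGy 8314 (5348 to 8559) with no agent.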

Other observations

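At 168 hr after 300 cGy, 14 of 28 interferon response genes rose and 6 fell (median 0.51 against 0.18 over all genes). A call was common there, since 72.7% of all genes passed, so this count is not a result about the list. Oas3 and Usp18, both interferon response genes, were 2.48 and 2.11 higher than without irradiation (limma adjusted p = 4e-12 and 2.34e-11), while Irf1 and Irf9, transcription factors of interferon signalling, were lower (-1.03 and -0.81, adjusted p = 2.84e-09 and 2.79e-05). Slfn4 differed by 0.42 there without passing, and Slfn1 and Slfn2 had fallen. At 450 cGy Oas3 was still 2.07 higher (adjusted p = 2.56e-09), Usp18 differed by -0.47 (adjusted p = 0.115) and Irf9 by -1.45 (adjusted p = 9.44e-13). These genes were picked after their values were seen.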
